A study of Mus musculus with 9 samples.

Results

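Genes of extracellular proteolysis were followed in cultured mouse macrophages, 10 in all: the matrix metalloproteinases Mmp14, Mmp2, Mmp8, Mmp12, Mmp13 and Mmp19, the membrane-bound metalloproteinase Adam8, and the tissue inhibitors of metalloproteinases Timp1, Timp2 and Timp3. They were taken by symbol from the deposited gene table, where all 10 are present among 24607 genes. The macrophages were grown with macrophage colony-stimulating factor (M-CSF, 50 ng/ml) from bone marrow of Cx3cr1-gfp/+ mice, in which green fluorescent protein sits at the locus of the fractalkine receptor. Some were kept with neurons from dorsal root ganglia, the sensory ganglia beside the spinal cord (co-culture). Others were kept with transforming growth factor beta (TGF-β) at 0.02 ng/ml and no neurons, or by themselves (monoculture). Each group had 3 libraries. All 9 samples carry the genotype CX3CR1-gfp/+ and a time of 5 d, and all cells were sorted on CD11b and CD64 before 10 ng of RNA was taken for each library. The series title states that sensory neurons shape the identity of nearby macrophages through TGF-β, so the question put to these genes is which of them move with neurons and which also move with TGF-β and no neurons. The samples came from 3 mice, but whether each group drew on all of them is not stated, so p-values measure the spread between these samples.

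Matrix metalloproteinases are zinc enzymes that cut collagens and other matrix proteins, and most are secreted as inactive precursors. Mmp14 (also called MT1-MMP) stays anchored in the cell membrane, cuts fibrillar collagen beside the cell and, with Timp2 as a bridge, activates the precursor of the gelatinase Mmp2. TIMPs block the active site of these enzymes, and macrophages use the system to move through tissue, to remodel it and to release cell-surface proteins.

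Levels are normalized counts, that is, reads of a gene divided by 1 size factor per library, and they compare libraries for the same gene. Depth was 133.8 to 308.8 M reads (M for mega) in co-culture, 46.8 to 151.6 M reads with TGF-β and 73.4 to 135.6 M reads in monoculture, and 1 read was worth 0.346 to 2.27 normalized counts. Fold changes are log2 of the normalized count plus 10, given with the standard error (SE) of a limma fit to all 9 libraries. A gene was called changed at an adjusted p under 0.05 (Benjamini-Hochberg over the 16328 genes that reached 10 in at least 3 libraries). The antigens of the sort, Itgam (CD11b) and Fcgr1 (CD64), were present in all groups and were not called in co-culture against monoculture (log2 fold changes -0.12 and 0.05, adjusted p = 0.387 and 0.778), nor were Csf1r and Cd68, while Emr1 (F4/80) fell (log2 fold change -0.69, adjusted p = 2.26e-04). Fibroblast markers and some glial markers were also higher in co-culture, and the fibroblast values are given beside Mmp14, Mmp2, Timp1 and Timp3. In bulk RNA, fewer cells of a type and less RNA per cell cannot be told apart.

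Mmp14 and Timp1 rose with neurons against monoculture, and Mmp12, Mmp13 and Adam8 fell. These are 5 of the 8 genes that would also have passed the filter on low values without the co-culture libraries. Mmp2 and Timp3 passed it through co-culture alone, so a difference was built in for them: they too were past the threshold, which made 7 of 10. They are described by their levels, and no p is given for their difference in co-culture. Of all genes tested, 30.8% were called in this comparison, 15.9% higher and 15.0% lower. Mmp14 was the only one of the 10 called with TGF-β against monoculture, where 2.52% of genes were called, 1.13% higher. Between co-culture and TGF-β, 7 of the 8 were called, 4 higher and 3 lower, where 25.3% of genes were called, 13.4% higher and 11.9% lower. The median log2 fold change of the 10 genes was 0.14 in co-culture and -0.19 with TGF-β against monoculture, beside 0.03 and -0.01 over all genes tested. The co-culture median includes Mmp2 and Timp3, for which a difference was built in, so its sign is not read as a result.

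**Figure D1:**
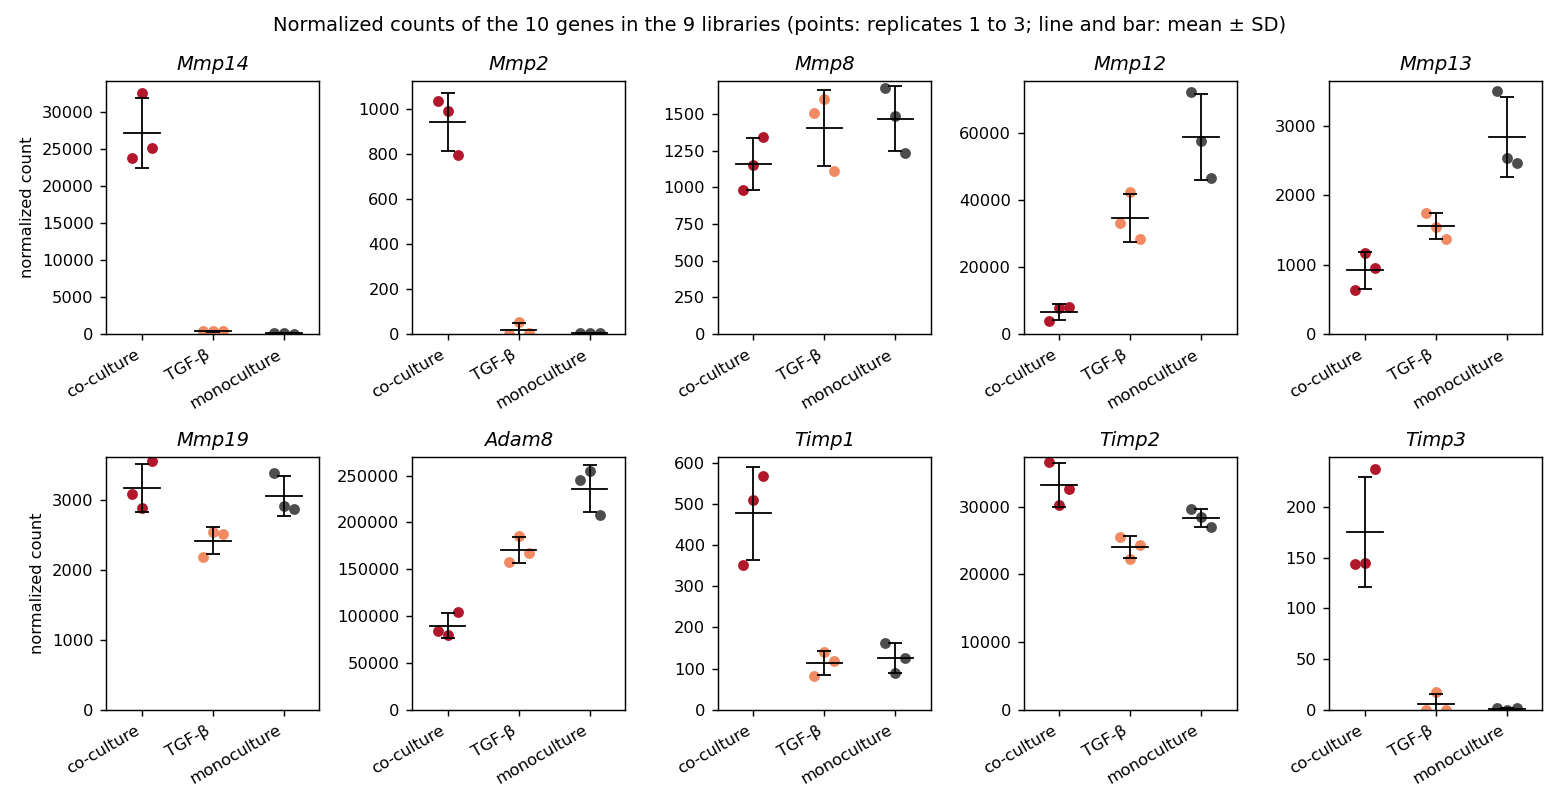
Normalized counts of the 10 genes on linear axes, 1 panel a gene, with 1 point a library for co-culture, TGF-β and monoculture; the line is the mean and the bar the SD of 3 libraries. Mmp14 and Mmp2 stand far above both other groups in co-culture, whereas Mmp12, Mmp13 and Adam8 are lowest in co-culture, with the TGF-β libraries between the other groups.

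Mmp14 lies at chr14:54431612-54445364 on the plus strand of mm10 (GENCODE M21). It had 23809.6, 32545 and 25185 normalized counts in the co-culture libraries, 364, 419.6 and 361 with TGF-β, and 90.9, 99.0 and 77.5 in monoculture. The 3 groups did not overlap: every co-culture library was above every TGF-β library, and every TGF-β library above every monoculture library. Mmp14 averaged 27180.0 ± 4697 in co-culture, 382 ± 32.7 with TGF-β and 89.1 ± 10.9 in monoculture (SD, n = 3 each). The ratio of means was 305 for co-culture over monoculture and 4.28 for TGF-β over monoculture. By limma, the log2 fold change was 8.09 ± 0.14 in co-culture (SE, adjusted p = 7.59e-14) and 1.99 ± 0.14 with TGF-β (adjusted p = 6.80e-06), both against monoculture. Co-culture exceeded TGF-β by 6.11 ± 0.14 on the log2 scale (adjusted p = 6.83e-12). All of these calls held under each alternative run, with an adjusted p of at most 0.00299 for TGF-β. Fibroblast markers, given with Mmp2, were higher in the same co-culture libraries, and their part in the level of Mmp14 there was not tested.

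The promoters printed here serve to compare Mmp14, which was higher in co-culture, with Mmp13 and Mmp12, which were lower. RefSeq (GRCm38.p6) gives windows of 250 bases before to 50 after the start for 8 of the 10 genes, 9 windows in all, as Mmp12 has 2 starts. Both strands were searched for an AP-1 site (TGANTCA, the site of Fos and Jun proteins), a GC box (GGGCGG, a site of Sp factors), the SMAD half-site CAGAC, the SMAD box GTCTAGAC and a PU.1 core (GAGGAAG). Capitals mark the AP-1 sites and GC boxes. The 3 windows, all on the plus strand and written 5′ to 3′, are Mmp14 at chr14:54431348-54431647, Mmp13 at chr9:7272264-7272563 and the second start of Mmp12 at chr9:7347124-7347423.
Mmp14: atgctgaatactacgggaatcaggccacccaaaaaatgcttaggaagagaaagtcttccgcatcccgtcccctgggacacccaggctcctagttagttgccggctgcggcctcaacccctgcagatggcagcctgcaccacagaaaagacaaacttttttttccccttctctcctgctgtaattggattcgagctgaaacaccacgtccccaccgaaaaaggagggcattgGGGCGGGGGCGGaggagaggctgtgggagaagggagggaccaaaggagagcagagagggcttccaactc
Mmp13: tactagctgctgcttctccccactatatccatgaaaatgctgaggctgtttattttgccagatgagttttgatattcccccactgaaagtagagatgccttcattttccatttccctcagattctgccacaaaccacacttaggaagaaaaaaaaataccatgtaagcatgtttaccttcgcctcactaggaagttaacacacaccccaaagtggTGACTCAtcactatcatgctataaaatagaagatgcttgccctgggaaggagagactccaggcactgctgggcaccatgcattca
Mmp12: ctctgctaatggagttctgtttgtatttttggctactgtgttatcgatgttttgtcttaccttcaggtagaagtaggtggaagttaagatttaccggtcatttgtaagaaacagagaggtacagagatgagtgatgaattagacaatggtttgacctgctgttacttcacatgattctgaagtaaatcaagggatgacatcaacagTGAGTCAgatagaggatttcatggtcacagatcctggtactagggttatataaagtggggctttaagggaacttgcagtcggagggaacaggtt
The Mmp14 window held 2 adjoining GC boxes, 19 and 13 bases before the start, and no match to the other 4 motifs. A GC box is found in 35.7% of the 32851 mouse windows of this length. Mmp13 and the second start of Mmp12 each held 1 AP-1 site, 35 and 44 bases before the start, which 7.81% of windows hold. The first start of Mmp12 held no AP-1 site, nor did the other members' windows, among them that of Adam8, which also fell. No member's window held the SMAD box (0.213% of windows). The SMAD half-site, in 49.6% of windows, was present for Adam8, Mmp8 and the first start of Mmp12, and the PU.1 core, in 13.6%, for Mmp8 and the first start of Mmp12. Timp1, Timp2, Timp3 and Adam8 each held a GC box. A match describes these letters and no more.

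The genes whose levels ran most closely with Mmp14 over the 9 libraries, by Pearson correlation of the log2 values among 10840 genes, were Clec4n, Rftn1, P2ry13, Tbc1d9 and Ctsc, with r between 0.996 and 0.997. These points share their libraries and groups, and r is a description. Their levels differ widely in scale of change: Clec4n, a lectin receptor, averaged 18905 in co-culture, 1334 with TGF-β and 575 in monoculture, whereas Rftn1, a membrane raft protein, averaged 16709.6, 8929 and 7153 in the same 3 groups. P2ry13, a receptor for ADP, averaged 3438 in co-culture, 571 with TGF-β and 295 in monoculture.

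Mmp2, the gelatinase that Mmp14 activates, lies at chr8:92827291-92853420 on the plus strand. It had 1035, 991 and 793 normalized counts in co-culture, 2.25, 52.4 and 4.54 with TGF-β, and 4.87, 4.60 and 3.10 in monoculture. The co-culture libraries were all above the others, and 1 TGF-β library, replicate 2, stood above both of its fellows with 24 of the 29 reads of its group. Mmp2 passed the filter through co-culture alone, so its difference is given as a size with no test: 6.06 ± 0.49 on the log2 scale for co-culture against monoculture. On the reads themselves, 5448 in co-culture and 11 in monoculture, the depth-corrected ratio was 242 (exact 95% interval 135 to 486, for counting error only). Because monoculture is so low, the log2 value depends on the number added: it was 7.51 with 1 added and 4.18 with 50 added. With TGF-β the ratio of reads to monoculture was 3.28 (1.59 to 7.28) and the log2 difference 0.66 ± 0.49 (adjusted p = 0.600). Without TGF-β replicate 2 the difference was -0.09, so the higher level with TGF-β rests on that library. The summed level of 16 fibroblast markers was 7673 to 11096 in co-culture, at most 146 with TGF-β and at most 154 in monoculture, and its part in the level of Mmp2 was not tested.

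Mmp13, Mmp12 and Mmp8 belong to a cluster of 10 Mmp genes within 427072 bases of chromosome 9. Mmp13 and Mmp12 fell in co-culture, and Mmp8 was not called. Mmp13 (chr9:7272514-7283331, plus strand), a collagenase, had 640.3, 1165 and 950.1 normalized counts in co-culture, 1748, 1541 and 1377 with TGF-β, and 3506, 2540.5 and 2470.3 in monoculture. No library of 1 group reached into another. Mmp13 fell in co-culture against monoculture (log2 fold change -1.64 ± 0.20, limma adjusted p = 7.67e-05) and against TGF-β (-0.79 ± 0.20, adjusted p = 0.0149), the second not called without TGF-β replicate 1 (adjusted p = 0.0607). With TGF-β against monoculture the log2 difference was -0.85 ± 0.20 and missed the threshold (adjusted p = 0.0574). That last value crossed it in 6 of the 20 alternatives, among them TMM scaling (adjusted p = 0.0467), DESeq2 on the recovered reads (adjusted p = 7.76e-04) and leaving out co-culture replicate 1 or 2 (adjusted p = 0.00792 and 0.0211).

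Mmp12 (chr9:7344381-7369499, plus strand), the macrophage elastase, had 3784, 7861 and 8062 normalized counts in co-culture, 33195, 42436 and 28454 with TGF-β, and 72092, 57680.3 and 46709 in monoculture. The groups again did not overlap, and the mean in co-culture was 0.112 of that in monoculture. Mmp12 fell in co-culture against monoculture (log2 fold change -3.22 ± 0.32, limma adjusted p = 1.37e-04) and against TGF-β (-2.46 ± 0.32, adjusted p = 8.98e-04). With TGF-β the log2 difference from monoculture was -0.76 ± 0.32 (adjusted p = 0.325). Of its exon bases 157, or 2.17%, are shared with Mmp1b on the opposite strand, and whether counting used strand is not given in the sources used here.

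Mmp8 (chr9:7558456-7568485, plus strand), known as neutrophil collagenase, did not pass the test in any comparison. It had 985, 1153 and 1341 normalized counts in co-culture, 1504, 1599.6 and 1111 with TGF-β, and 1681, 1485 and 1237 in monoculture, and the groups overlapped. The log2 differences were -0.34 ± 0.16 for co-culture and -0.07 ± 0.16 for TGF-β against monoculture (limma adjusted p = 0.131 and 0.904), and -0.27 ± 0.16 for co-culture against TGF-β (adjusted p = 0.252), called without TGF-β replicate 3 only (-0.43). Of the 9 neutrophil markers in the table, 2 were tested and 1, Csf3r, rose in co-culture, where 15.9% of all genes were higher. The sum of the 9 markers lay at 1047 to 1642 normalized counts in co-culture, at 594 to 1023 with TGF-β and at 473 to 579.6 in monoculture. Nearly all of it was Csf3r, which macrophages also express. Of the 9, 2 to 5 were at 0 in a co-culture library, 5 to 6 in a TGF-β library and 4 to 6 in a monoculture library. Their part in the level of Mmp8 was not tested.

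Among the 10 AP-1 and Ets family genes, 4 rose and 4 fell in co-culture against monoculture, and 2 fell with TGF-β, beside 15.9% and 15.0% of all genes higher and lower in co-culture and 1.39% lower with TGF-β. The 4 genes of smallest p did not move together. Fosl1, which encodes Fra-1, averaged 48.3 ± 26.2 in co-culture, 404 ± 125 with TGF-β and 936 ± 133 in monoculture (SD, n = 3 each; log2 fold change -4.11 in co-culture, limma adjusted p = 1.90e-07, and -1.22 with TGF-β, adjusted p = 0.0486). Jund fell in both (-1.03 and -0.44), while Fosb and Junb rose in co-culture (3.08 and 0.70).

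Mmp19 (chr10:128790910-128800824, plus strand), a secreted metalloproteinase of macrophages and other cells, had 3076, 2879 and 3546 normalized counts in co-culture, 2189, 2544 and 2509 with TGF-β, and 3387, 2912 and 2864 in monoculture. Co-culture and monoculture overlapped, and both lay above the TGF-β libraries. The log2 difference was 0.05 ± 0.10 for co-culture against monoculture (limma adjusted p = 0.762) and -0.34 ± 0.10 for TGF-β against monoculture (adjusted p = 0.120). Mmp19 was higher in co-culture than with TGF-β (0.39 ± 0.10, adjusted p = 0.0139), a call that was lost without co-culture replicate 3 (adjusted p = 0.0693) or TGF-β replicate 1 (adjusted p = 0.0732). It shares 789 exon bases, 22.3% of its exon length, with Tmem198b on the opposite strand, which lay at 756 to 929 normalized counts in co-culture, at 729.9 to 893 with TGF-β, and at 896 to 1009 in monoculture.

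Adam8 (chr7:139978932-139992562, minus strand), a membrane protease that cuts cell-surface receptors and adhesion proteins, had the highest level per kilobase of exon of the 10 genes in every group. It had 84421, 79520.3 and 104879.6 normalized counts in co-culture, 157804, 185667 and 167535 with TGF-β, and 245262, 254841 and 207714 in monoculture. As for Mmp13 and Mmp12, the TGF-β libraries lay between the other groups with no overlap. Adam8 fell in co-culture against monoculture (log2 fold change -1.40 ± 0.12, limma adjusted p = 6.91e-07) and against TGF-β (-0.93 ± 0.12, adjusted p = 5.18e-05). With TGF-β the log2 difference from monoculture was -0.47 ± 0.12 (adjusted p = 0.0612). It passed the threshold under TMM scaling (adjusted p = 0.0457), with DESeq2 (adjusted p = 0.00473) and without co-culture replicate 3 (adjusted p = 0.0341) or monoculture replicate 3 (adjusted p = 0.0469).

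Each of the 3 TIMPs had its own pattern. Timp2 (chr11:118301069-118355740, minus strand), the bridge between Mmp14 and the Mmp2 precursor, had 36653, 30268 and 32590.0 normalized counts in co-culture, 25500.1, 22232 and 24348 with TGF-β, and 29679.7, 28414 and 26979 in monoculture. The groups did not overlap, but the ratios of means were small, 1.17 for co-culture over monoculture and 0.847 for TGF-β over monoculture, and neither was called (limma adjusted p = 0.0825 and 0.217). Timp2 was higher in co-culture than with TGF-β (log2 fold change 0.46 ± 0.09, adjusted p = 0.00173). Thus, in the libraries in which Mmp14 and Mmp2 were higher by the ratios given above, Timp2 differed from monoculture by 0.22 ± 0.09 on the log2 scale.

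Timp1 (chrX:20870166-20874735, plus strand), a secreted inhibitor with little effect on membrane-type enzymes, had 352, 510.3 and 569 normalized counts in co-culture, 81.2, 139.9 and 118 with TGF-β, and 162, 88.6 and 126 in monoculture. Every co-culture library was above the others, and TGF-β and monoculture overlapped. Timp1 rose in co-culture against monoculture (log2 fold change 1.85 ± 0.27, limma adjusted p = 9.30e-05) and against TGF-β (1.99 ± 0.27, adjusted p = 7.16e-05), and its difference with TGF-β was -0.13 ± 0.27 (adjusted p = 0.886). The gene lies inside Syn1 on the opposite strand, with no exon base in common. The summed level of the 16 fibroblast markers, given with Mmp2, was higher in the same co-culture libraries as Timp1, and the part of these markers was not tested. Syn1 was lower in co-culture, at 339.9 to 636 normalized counts in co-culture, at 1571 to 2195 with TGF-β, and at 3899.9 to 5126 in monoculture.

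Timp3 (chr10:86300372-86349506, plus strand), an inhibitor that binds to the matrix and also blocks ADAM enzymes, had 143, 145 and 237 normalized counts in co-culture, 0, 17.5 and 0 with TGF-β, and 1.62, 0 and 1.55 in monoculture. These stand for 956 reads in co-culture, 8 with TGF-β, all in replicate 2, and 3 in monoculture. Timp3 passed the filter through co-culture alone, and its difference from monoculture there, given with no test, was 4.03 ± 0.40 on the log2 scale. The log2 value was 6.50 with 1 added and 2.11 with 50 added, and the ratio of depth-corrected reads was 156 (exact 95% interval 53.2 to 758). With TGF-β the ratio to monoculture was 3.32 (0.797 to 19.4), on 8 and 3 reads, so no difference was detectable at this depth. The fibroblast markers were higher in the same co-culture libraries, and their part in the level of Timp3 was not tested. A share of 21.3% of its exon bases lies opposite Syn3, which had at most 3.12 normalized counts in any co-culture library and 0 in all others.

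**Figure D2:**
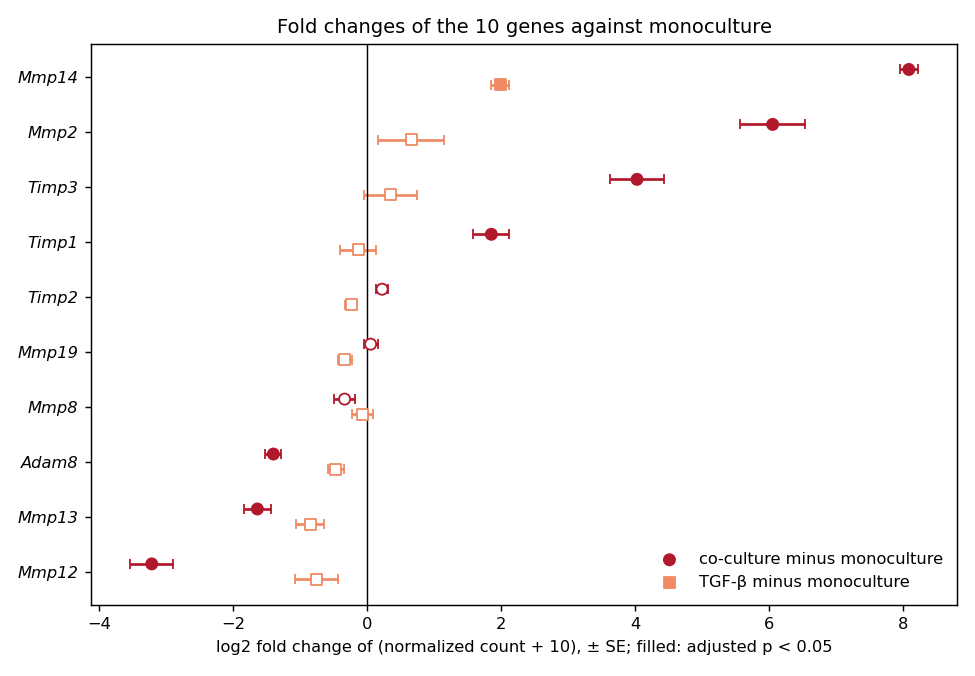
Log2 fold changes of (normalized count + 10) against monoculture for the 10 genes, with bars of 1 SE; circles are co-culture, squares TGF-β, and filled symbols have an adjusted p under 0.05. Mmp14 is the only filled square, at 1.99, and its circle lies at 8.09; Mmp2 and Timp3 passed the filter through co-culture alone.

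Which genes also moved without neurons can be read from the comparison of TGF-β with monoculture, which shares its monoculture libraries with that of co-culture. Mmp14 rose. Mmp13 and Adam8 missed the threshold narrowly, with every TGF-β library below every monoculture library, and passed it under some alternatives. Mmp12, Mmp19 and Timp2 also had all TGF-β libraries below all monoculture libraries, with adjusted p between 0.120 and 0.325 (limma). Over all genes tested, the groups failed to overlap in 16.9% for TGF-β and monoculture, beside 6 of these 10, 1 above and 5 below. For co-culture and monoculture the groups did not overlap for 8 of the 10, 5 above and 3 below, beside 45.0% of all genes. For co-culture and TGF-β they did not overlap for 9, beside 41.0%. Both co-culture counts include Mmp2 and Timp3, which passed the filter through co-culture alone, so that their higher level was built in. The others that did not overlap between co-culture and monoculture were Mmp14, Timp1 and Timp2 above, and Mmp12, Mmp13 and Adam8 below.

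Because longer transcripts yield more reads, levels of different genes were compared as normalized counts per kilobase of exon. The length merges the exons of all annotated transcripts of a gene, 7237 bases for Mmp12 and 5960 for Mmp14. Transcripts in use can be shorter, so ranks, shares and sums depend on this choice, and no other length was tried. In co-culture Adam8 led with 19320.2 ± 2900.3, ahead of Timp2 with 8514 ± 829 and Mmp14 with 4560.4 ± 788 (SD, n = 3 each). In monoculture Adam8 led with 50871 ± 5371, ahead of Mmp12 with 8129 ± 1759 and Timp2 with 7279 ± 347, which did not differ beyond their spread, and Mmp14 was in place 8 of 10 at 15.0 ± 1.82. Of the summed level of the 6 matrix metalloproteinases, Mmp14 made up 63.0%, 63.7% and 56.4% in the co-culture libraries, 0.935%, 0.890% and 1.07% with TGF-β, and 0.118%, 0.160% and 0.149% in monoculture. Mmp12 took 8.25%, 12.7% and 14.9% in co-culture, 70.1%, 74.2% and 69.3% with TGF-β, and 77.0%, 76.8% and 74.1% in monoculture. So, at these lengths, the leading transcript among the 6 was Mmp14 in each co-culture library and Mmp12 in each of the other libraries. Their summed level per kilobase was 7465 ± 1113 in co-culture, 6708 ± 1123 with TGF-β and 10677 ± 2130 in monoculture (SD, n = 3 each). At these lengths that range was narrower than that of Mmp14 or Mmp12, and the sums would change with the length taken for Mmp12. Timp2 made up 93.8% of the summed TIMP level in co-culture, 97.9% with TGF-β and 98.1% in monoculture, and Timp1 most of the rest.

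**Figure D3:**
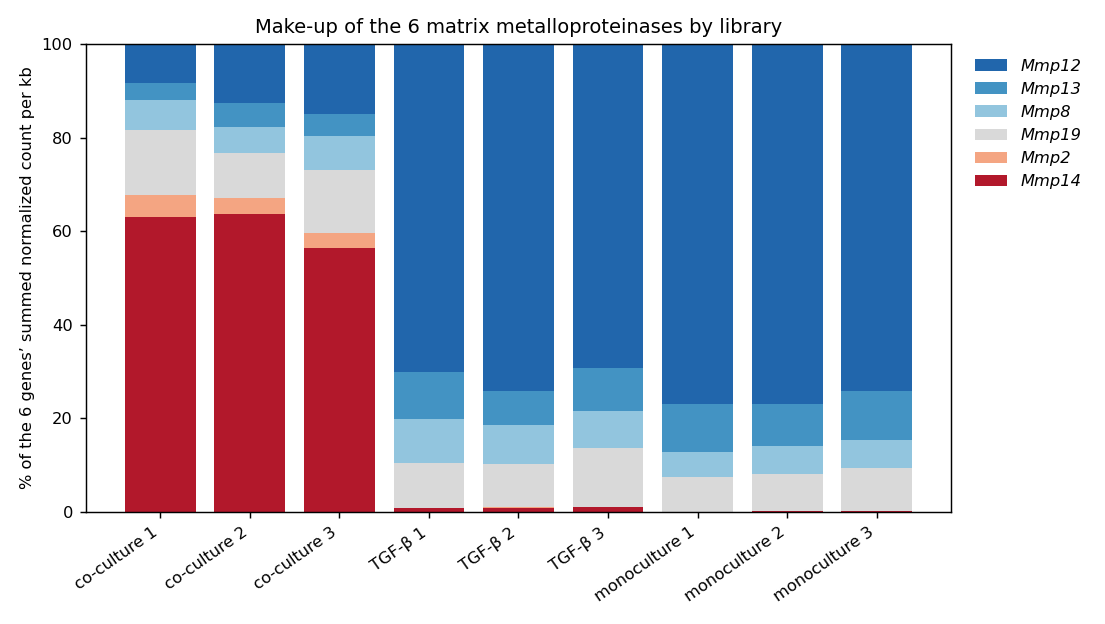
Make-up of the 6 matrix metalloproteinases in each library, as percent of their summed normalized count per kilobase of exon; each bar is 1 library. Mmp14 fills 56.4% to 63.7% of the bar in co-culture and at most 1.07% elsewhere, where Mmp12 fills 69.3% to 77.0%.

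No gene of the wider metalloproteinase families was called with TGF-β against monoculture, where 2.52% of all genes were called. Of 9 other matrix metalloproteinases tested, 2 were higher and 4 fell in co-culture against monoculture, beside 15.9% and 15.0% of all genes. Mmp17 had 58.2, 55.5 and 61.1 normalized counts in co-culture, 10.5, 2.19 and 18.2 with TGF-β, and 8.12, 0 and 9.30 in monoculture. Mmp17 passed the filter through co-culture alone, so a difference was built in. Its log2 difference in co-culture, given with no test, was 2.17. Mmp11 rose in co-culture (log2 fold change 1.41, limma adjusted p = 0.00468). Mmp9, the other gelatinase, averaged 159 ± 149 in co-culture, 252 ± 101 with TGF-β and 1684 ± 487 in monoculture (SD, n = 3 each). It fell in co-culture (log2 fold change -3.63, adjusted p = 0.00202), and with TGF-β the difference was -2.73 (adjusted p = 0.0619). Mmp10, Mmp25 and Mmp28 fell too in co-culture (-1.92, -1.68 and -1.20).

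Of 8 other ADAM genes tested, 3 were higher in co-culture and none fell, beside 15.9% and 15.0% of all genes. Adam10 and Adam9, abundant shedding enzymes, rose by 0.55 and 0.44 on the log2 scale (limma adjusted p = 4.81e-04 and 9.59e-04), and Adam12, which passed the filter through co-culture alone, averaged 105 ± 17.2 in co-culture, 2.24 ± 2.27 with TGF-β and 0.800 ± 0.812 in monoculture (SD, n = 3 each). Of 9 ADAMTS genes tested, which encode secreted enzymes that cut proteoglycans and procollagen, 5 were higher and none fell, but 4 of those 5, Adamts5, Adamts2, Adamts12 and Adamts4, passed the filter through co-culture alone. Adamts5 averaged 81.8 ± 9.95 in co-culture and had no read in any other library, which allows up to 3 reads a library, or 2.25 to 6.82 normalized counts with TGF-β and 2.32 to 4.87 in monoculture. No gene of either list was called with TGF-β. The fibroblast markers given with Mmp2 were higher in the same co-culture libraries, and their part in these ADAM and ADAMTS levels was not tested.

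Regulators of the proteases also moved. Reck, a membrane-anchored inhibitor of metalloproteinases, averaged 63.1 ± 9.42 in co-culture, 169 ± 19.5 with TGF-β and 175 ± 19.1 in monoculture (SD, n = 3 each) and fell in co-culture (log2 fold change -1.34, limma adjusted p = 2.55e-04). Tfpi2, a secreted inhibitor of serine proteases, rose (1.73, adjusted p = 0.00216), and the uptake receptor Lrp1 was not called. Of 9 activators and partners, 6 were higher, 1 of them through the filter by co-culture alone, and 1 fell. Beside these, 15.9% of all genes tested were higher in co-culture and 15.0% lower. Furin, the convertase that removes the propeptide of Mmp14, averaged 17697 ± 826 in co-culture, 11497 ± 875 with TGF-β and 10293 ± 1535 in monoculture (0.79, adjusted p = 3.27e-05). Cd44, a docking protein for Mmp14 and Mmp9, fell (-1.02, adjusted p = 4.44e-06), while the integrin chain Itgav and Rhbdf2, which carries Adam17 to the surface, rose (0.87 and 0.80).

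In the plasminogen system 5 of 9 genes tested were higher in co-culture and 4 fell, beside 15.9% and 15.0% of all genes, and 2 of the 5 passed the filter through co-culture alone. With TGF-β 1 of the 9 rose, beside 1.13% of all genes. The gene was Serpine2, protease nexin-1, which averaged 191 ± 39.1 in co-culture, 54.2 ± 14.7 with TGF-β and 12.4 ± 5.17 in monoculture (SD, n = 3 each; log2 fold changes 3.17 in co-culture and 1.52 with TGF-β, limma adjusted p = 1.50e-06 and 0.0132). S100a10 and Anxa2, which together bind plasminogen at the surface, fell in co-culture (-1.49 and -1.54). Of 16 cathepsin and cystatin genes, 8 rose and 3 fell in co-culture, and 2 rose and 1 fell with TGF-β. The shares over all genes were 15.9% and 15.0% in co-culture, and 1.13% and 1.39% with TGF-β. Ctsc averaged 86717 ± 3423 in co-culture, 21273 ± 2623 with TGF-β and 11730.4 ± 1083 in monoculture (SD, n = 3 each), and with Ctsh it rose in both comparisons. Ctsk, a collagen-cutting cathepsin, fell in both (-2.14 in co-culture and -0.86 with TGF-β, limma adjusted p = 1.58e-06 and 0.0383). The 4 genes of collagen and gelatin uptake were all higher in co-culture, but Mrc2 and Itga11 passed the filter through co-culture alone. Fibroblast markers were higher in the same libraries, and their part in the levels of these 4 genes was not tested. Mrc1, the mannose receptor, averaged 254381 ± 20661 in co-culture, 89177 ± 14485 with TGF-β and 117160.0 ± 8309 in monoculture.

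**Figure D4:**
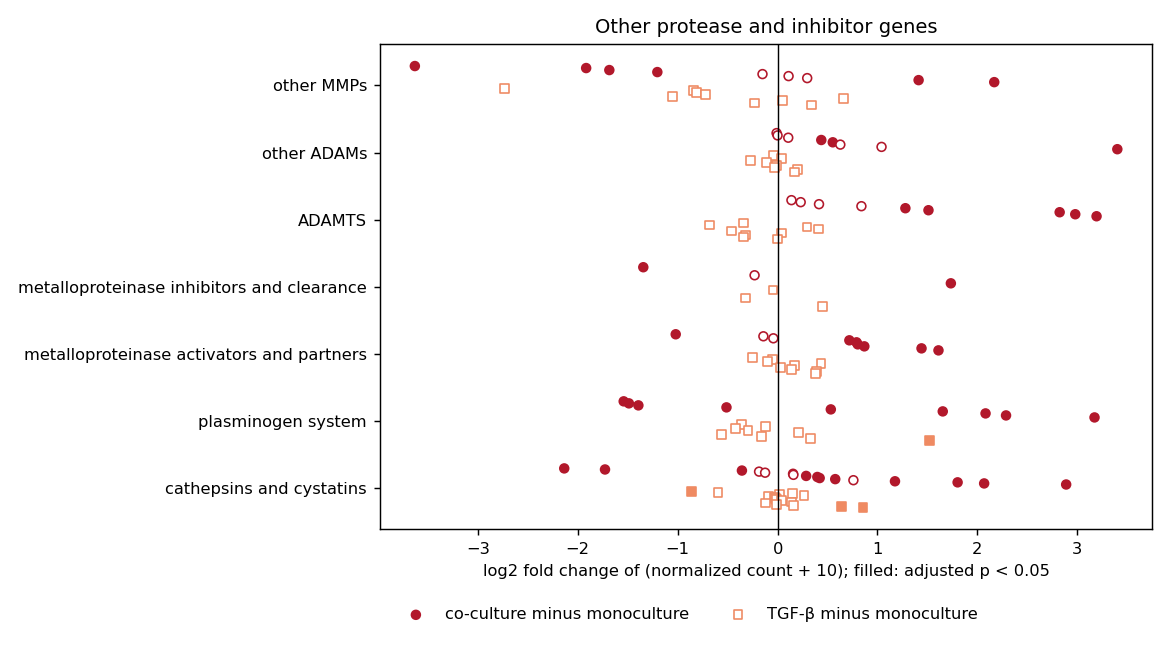
Log2 fold changes of (normalized count + 10) against monoculture for the tested genes of 7 other protease lists, 1 point a gene; circles are co-culture, squares TGF-β, and filled symbols have an adjusted p under 0.05. Most lists hold filled circles on both sides of 0, and the filled squares are 4 genes, Serpine2, Ctsc, Ctsh and Ctsk. The filled circles include Mmp17 and other genes that passed the filter through co-culture alone.

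Genes that TGF-β is known to induce are given beside the 10 genes. Their list was chosen with earlier results of these data known, so it is no independent check of the TGF-β group. Of the 6 genes listed, 3 rose with TGF-β and 4 in co-culture, each against monoculture, beside 1.13% and 15.9% of all genes. Pmepa1, a feedback inhibitor of the pathway, averaged 21474 ± 2406 in co-culture, 417 ± 181 with TGF-β and 21.1 ± 15.0 in monoculture (SD, n = 3 each; log2 fold changes 9.55 and 3.79 against monoculture, limma adjusted p = 4.80e-07 and 0.00331). Smad7 rose by 2.02 in co-culture and 0.54 with TGF-β, and Skil by 1.64 and 0.64. In each of these genes, as in Mmp14, the difference in co-culture was the larger on the log2 scale, and co-culture exceeded TGF-β (adjusted p = 1.94e-05 for Pmepa1, 6.26e-07 for Smad7 and 5.82e-06 for Skil).

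Genes of fibroblasts, which also make metalloproteinases and TIMPs, were higher in the co-culture libraries. Of 16 fibroblast markers in the table, 14 were tested, and 11 of these passed the filter through co-culture alone. The other 3 rose in co-culture against monoculture, where 15.9% of all genes were higher. The 16 summed to between 7673 and 11096 normalized counts in co-culture, between 27.8 and 146 with TGF-β and between 51.9 and 154 in monoculture. At most 1 of the 16 was at 0 in a co-culture library, while 6 to 8 were at 0 with TGF-β, and 5 to 8 in monoculture libraries. Col1a2, a chain of the main fibroblast collagen, averaged 1984 ± 326 in co-culture, 18.0 ± 11.1 with TGF-β and 28.8 ± 12.9 in monoculture (SD, n = 3 each), and Fbln2 averaged 1202 ± 130.1, 1.46 ± 2.52 and 5.62 ± 5.24 in the same groups. Of the 3 TGF-β libraries, replicate 2 had the highest summed fibroblast level, 146, and held 24 of the 29 Mmp2 reads and all 8 Timp3 reads of its group. Monoculture replicates 1 and 2 had like sums, 154 and 142, with 3 and 4 Mmp2 reads and 1 and 0 Timp3 reads. The part of these markers in the levels of Mmp2, Timp1, Timp3 and Mmp14 in co-culture was not tested.

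**Figure D5:**
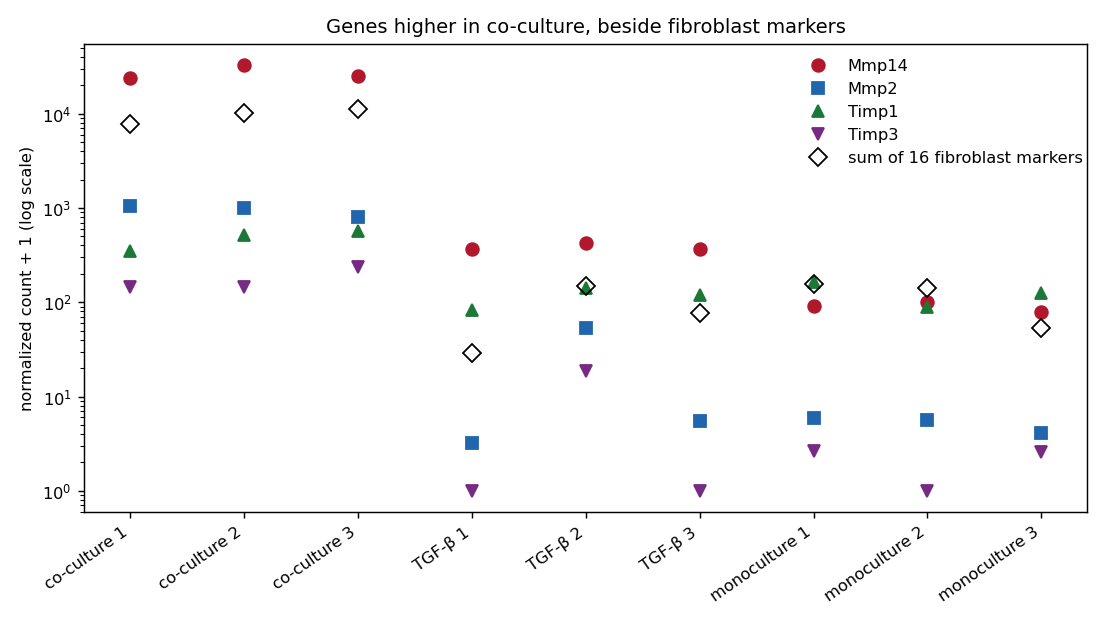
Normalized counts plus 1 of Mmp14, Mmp2, Timp1 and Timp3 beside the sum of 16 fibroblast markers in each library, on a log axis. The sum is 7673 to 11096 in co-culture and at most 154 elsewhere; in the TGF-β libraries Mmp14 stands at 361 to 419.6.

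Glial genes were seen in co-culture as well. Of 11 Schwann cell and satellite glia markers tested, the 7 that were higher than in monoculture passed the filter through co-culture alone, and 3 fell. Ngfr averaged 234 ± 26.0 in co-culture and had no read in any TGF-β or monoculture library, and Sox10 averaged 147 ± 62.0 in co-culture, 0 with TGF-β and 0.258 ± 0.447 in monoculture (SD, n = 3 each). The summed glial level nevertheless was 19759 to 26189 in co-culture, 53508 to 57478 with TGF-β and, in monoculture, 62991 to 78608, since Pmp22, which macrophages express too, fell (log2 fold change -1.91). Of 4 sensory neuron markers tested, Tubb3 rose and Uchl1 fell. Of 5 osteoclast markers tested, 3 were higher, 1 of them through the filter by co-culture alone, and 2 fell in co-culture, Dcstamp and Atp6v0d2 among those that fell, as did Ctsk. These glial, neuronal and osteoclast counts stand beside 15.9% of all genes higher in co-culture and 15.0% lower. The part of glial or neuronal RNA in the levels of the 10 genes was not tested.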

How the data were processed

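RNA of 9 sorted macrophage samples was made into libraries by the SMART-Seq Stranded method, as the labels' protocols state. The submitters' processing notes name bcl2fastq 2.20, STAR 2.7.3, DESeq2 1.24.0, R 3.6.1 and mm10, with no role or order; how reads were counted, with which annotation, strand setting or filter, is not given in the sources used here. The values deposited by the authors are a signal, recognised from the numbers as reads per gene over 1 size factor per library: 100% of the values in each library were whole multiples of 1 read within 0.05. They are called normalized counts.

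The test was limma 3.58.1 (trend, robust) in R 4.3.3 on log2(value + 10), for the 16328 genes with at least 10 in at least 3 libraries, with the group as the only factor. The design foresaw a test on counts, which scaled values do not allow, so edgeR 4.0.16 and DESeq2 1.42.0 on the recovered reads were alternatives, among 20 run. The fit was tested on simulated data. Per-kilobase levels use merged exons of GENCODE M21. Intervals cover counting error only.

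All 10 genes are described; from other lists at most the 4 of smallest p in co-culture against monoculture were named, or all called genes of the matrix metalloproteinase, ADAM and inhibitor lists. The members and lists were chosen with earlier results of these data known. Same-numbered samples were not treated as pairs. A gene of the plasminogen list is not reported here by name.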

Additional observations from a re-analysis of the deposited data

How the results depend on the processing

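Against monoculture 7 of the 10 genes were past the threshold in co-culture under every alternative, 5 of them among the 8 that could pass the filter without co-culture, and Mmp14 kept its call in all 3 comparisons. With TGF-β, Mmp13 and Adam8 also crossed the threshold under TMM scaling and with DESeq2. Of these 2, 1 did so when only the 2 groups compared were fitted, without robust variances, or when some libraries were left out. Genes called with TGF-β numbered 412, and 897 with DESeq2 on the recovered reads. Leaving out libraries gave 46 (replicate 1 of every group) to 939 (TGF-β replicate 3), with 165 without TGF-β replicate 1, 247 without TGF-β replicate 2, 269 without monoculture replicate 1 and 249 without monoculture replicate 2. For co-culture, 5033 genes against monoculture became 3042 to 5464, and 4128 against TGF-β became 2184 to 4601, with 7 to 10 members called against TGF-β. The causes were not tested.

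Directions turned only for differences that were not called. When 1 library was left out, Mmp19 in co-culture against monoculture ranged from -0.033 to 0.127 on the log2 scale. With TGF-β against monoculture Timp1 ranged from -0.34 to 0.069 (0.26 without replicate 1 of every group), Mmp2 from -0.086 to 1.09, Timp3 from -0.14 to 0.59 and Mmp8 from -0.19 to 0.090. With the replicate number as a block, 4926, 397 and 3956 genes and 7, 1 and 9 members were called for co-culture over monoculture, TGF-β over monoculture and co-culture over TGF-β, in that order; same-numbered samples correlated at -0.147 to 0.372, not all over 0.1, so they were not treated as pairs, and no member's call changed under the block. No setting moved the median of all genes by over 0.1. Depth limits Mmp2 and Timp3 outside co-culture, where single reads decide the value.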
